A study of Mus musculus with 14 samples.

Results

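The 9 genes described here build the fibrous sheath and the outer dense fibers of the sperm tail, and they were measured in testes of Adad2M/M and Adad2+/+ mice. They are the sheath scaffolds Akap3 and Akap4, the fiber proteins Odf1 and Odf2, the sheath-interacting proteins Fsip1 and Fsip2, and the docking-domain proteins Ropn1, Ropn1l and Cabyr. They were taken by name for their place in these structures and are 9 of the 53239 gene symbols measured. The Adad2M/M mutants (n = 4, animals 12, 69, 93 and 94) and the wild types (Adad2+/+, n = 3, animals 121, 140 and 17) were C57BL/6 mice of 21 dpp (days post partum). Both genotypes also carried the Stra8-iCre transgene and the Rpl22-HA (RiboTag) allele, so the controls had the tag as well. Stra8-iCre acts in differentiating male germ cells, where it switches the ribosomal protein RPL22 to an HA-tagged form, and the tagged ribosomes were pulled down with an antibody to HA. From each animal 1 library was made from the pulled-down RNA (IP) and 1 from the total RNA of the whole testis lysate (input), which makes 14 libraries. The ratio of IP to input is the study's measure of ribosome association. Input comes from the whole testis with its somatic cells, and in such bulk RNA fewer cells of a type and less RNA per cell cannot be told apart.

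The outer dense fibers run along the axoneme of the sperm tail, and the fibrous sheath surrounds them in the principal piece. The sheath is made largely of A-kinase anchoring proteins, which hold protein kinase A and glycolytic enzymes along the flagellum. Most of its genes are transcribed from late meiosis into the haploid stages, and many of their mRNAs are stored before they are translated in elongating spermatids. The first wave of spermatogenesis at 21 dpp holds pachytene spermatocytes and few round spermatids.

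Gene positions are given in GRCm38 with coordinates from GENCODE M21. Akap3 is at chr6:126853098-126874308, Akap4 at chrX:7067519-7078609, Odf1 at chr15:38219203-38226735, Odf2 at chr2:29889221-29931746 and Ropn1 at chr16:34649921-34678618, all on the plus strand. Fsip2 (chr2:82943634-83008937) is also on the plus strand, while Fsip1 (chr2:118130424-118256966) and Ropn1l (chr15:31441211-31453737) are on the minus strand. The tables listed 47 transcripts for these genes, of which 25 belong to Odf2.

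Akap3 and Akap4 encode the scaffolds of the sheath on which the other proteins dock, and the window at the first of 2 Akap4 starts shares a run of 20 bases with that of Akap3. RefSeq start-site windows (GRCm38.p6) were at hand for 6 of the 9 genes, and each window was read over the 250 bases before its start. All pairs of windows from different genes were compared, and the longest shared run was that of Akap3 and the first Akap4 start. The 100 bases before each start are shown because the shared run lies in them, in capitals, and those of Ropn1l because they hold an X-box half-site (GTTGCC, in capitals), a motif bound by RFX factors.
Akap3, plus strand, chr6:126852998-126853097: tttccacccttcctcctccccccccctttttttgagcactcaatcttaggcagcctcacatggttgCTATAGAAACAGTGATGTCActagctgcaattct
Akap4, plus strand, chrX:7067415-7067514: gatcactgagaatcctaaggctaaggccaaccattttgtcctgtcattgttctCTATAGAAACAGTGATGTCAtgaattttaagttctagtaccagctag
Ropn1l, minus strand, chr15:31453690-31453789: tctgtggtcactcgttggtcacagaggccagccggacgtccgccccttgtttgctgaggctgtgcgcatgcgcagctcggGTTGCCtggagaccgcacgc
The shared run began at position -34 of Akap3 and at position -47 of Akap4, counted from the start site. The run was picked because these 2 windows share it, so finding it in both was fixed in advance. On either strand it was in 2 of 32817 promoter windows of the same length (0.00609%), which were these 2. The second Akap4 window shares a run of 10 bases with Akap3, and most Akap4 in input was assigned to Akap4-203, which begins near that second start. Akap4-203 held 100% of the Akap4 TPM in mutant inputs 12, 69 and 94 and 0% in mutant input 93, against 54.5%, 85.2% and 74.5% in wild-type input. The last 8 bases of the 20-base run, TGATGTCA, differ by 1 base from the palindromic cAMP response element TGACGTCA, and they occurred on either strand in 2.93% of all windows and in no other window of these genes. The full element TGACGTCA was in 1.55% of all windows and in 0 of the 10 windows of these genes. Its half-site TGACG was in 17.7% of all windows and in 3 of the 10 windows of these genes, from Fsip2 and Odf2. Not all Odf2 windows held it. The X-box half-site GTTGCC was in 10.4% of all windows and, among these genes, in that of Ropn1l. These matches are descriptions of letters in a window, and no factor binding was measured.

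The libraries held 22987974 to 30871330 expected counts each. The number of annotated genes above 0 was 12744 to 15024 in mutant IP against 19655 to 21880 in wild-type IP, and 15438 to 27002 in mutant input against 25319 to 27791 in wild-type input. Mutant input libraries 12 and 69 were the lowest of the inputs, at 16024 and 15438 genes. Of the 47 transcripts, 15 to 20 were above 0 in mutant IP and 27 to 30 in wild-type IP. Spike-in RNAs, which were added and not made by the cells, were above 0 for 43 to 54 sequences in mutant IP and for 67 to 71 in wild-type IP. In mutant inputs 12, 69, 93 and 94, 37, 36, 48 and 67 spike-ins were above 0, against 61 to 67 in wild-type input. Of the 47 transcripts, 20, 19, 26 and 34 were above 0 in these mutant inputs, against 33 to 38 in wild-type input. Adad2 itself averaged 8.19 ± 3.29 CPM (counts scaled to library size) in mutant input (SD, n = 4) and 27.6 ± 3.06 CPM in wild-type input (SD, n = 3), and 9.39 ± 2.34 CPM in mutant IP and 102 ± 6.24 CPM in wild-type IP. Every mutant was below every wild type in both fractions. The part of library detection in the results below was not tested.

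Per unit of length, Odf2 and Ropn1l were by far the most abundant of these mRNAs. In TPM (transcript abundance per length, scaled to a common total and summed over a gene's transcripts), Odf2 averaged 319.5 ± 26.7 in mutant input and 522 ± 67.1 in wild-type input, and Ropn1l averaged 129 ± 26.1 in mutant input and 233 ± 37.9 in wild-type input (SD, n = 4 and 3). Together they made up 88.8% to 95.0% of the summed TPM of the 9 genes in every library. ODF2 is a main protein of the outer dense fibers and also a part of the centriole, and ROPN1L has the docking domain by which proteins bind A-kinase anchors. In wild-type input the order below these was Akap3 (18.2 TPM), Fsip1 (16.5), Ropn1 (15.1), Odf1 (12.8), Akap4 (9.89), Fsip2 (9.21) and Cabyr (8.55), and each gene overlapped its neighbour in this order over the 3 animals. In wild-type IP the order was Odf2 (611 TPM), Ropn1l (588), Fsip2 (50.6), Fsip1 (32.0), Ropn1 (21.3), Cabyr (8.83), Akap3 (7.42), Akap4 (1.12) and Odf1 (0.87). There, Odf2 and Ropn1l overlapped, as did Cabyr and Akap3, and Akap4 and Odf1, while the other neighbours did not. Akap3 stood at rank 3 in wild-type input and at rank 7 in wild-type IP. Fsip2 stood at rank 8 in wild-type input and at rank 3 in wild-type IP, a place that rests on transcript length. Its counts were 1234.5, 660.5 and 2324.2 in wild-type input and 1139.4, 1232.3 and 1128.4 in wild-type IP. The short transcript Fsip2-202 held 77.7% to 86.2% of its TPM in wild-type IP, against 30.3% to 61.9% in wild-type input.

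The first comparison asked whether total RNA of these genes differed between the genotypes. All 9 genes had a lower mean in mutant input, at 41.4% (Akap4) to 73.3% (Odf2) of the wild-type mean CPM, but none passed the test at an adjusted p under 0.05 (edgeR's quasi-likelihood test with Benjamini-Hochberg adjustment over all features). That test called 3 of 36572 features (0.0082%). At an unadjusted p under 0.05, 4 of the 9 genes were lower (Akap3, Akap4, Odf2 and Ropn1l), against 4.76% of all features. DESeq2 called Akap3 alone of the 9, where it called 2.16% of features lower. The median log2 fold change was -0.93 over the 9 genes, against -0.18 over all features and -0.06 over protein-coding genes. Without mutant animals 12 and 69, all 9 were still below 0, with a median of -1.28.

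Akap3, whose protein appears early in the assembly of the sheath, had the smallest p of the 9 genes in input. Its level was 31.5, 34.0, 26.9 and 30.15 CPM in mutant animals 12, 69, 93 and 94, against 78.5, 57.4 and 79.1 CPM in wild-type animals 121, 140 and 17. Every mutant lay below every wild type, and the mutants spread by less than the wild types. The log2 fold change was -1.23 ± 0.17 (SE), with an adjusted p of 0.232 in edgeR and 7.41e-07 in DESeq2, and over the 15 alternative settings its adjusted p ran from 7.41e-07 to 0.956, the last without wild-type animal 121. An exact two-sided permutation test over the 7 animals gave p = 0.0286, the smallest that the 35 splits allow.

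Akap4, an X-linked gene whose protein is the most abundant of the mature sheath, had 7.72, 28.9, 12.2 and 9.19 CPM in mutant input, against 40.1, 24.25 and 40.7 CPM in wild-type input. Animal 69 lay above wild-type animal 140, and the other 3 mutants lay below all wild types (log2 fold change -1.27 ± 0.48, adjusted p = 0.618 in edgeR). Odf1, which encodes a cysteine-rich protein of the fibers, had 13.5, 3.24, 7.76 and 5.98 CPM in mutant input, against 16.3, 11.6 and 19.8 CPM in wild-type input. Mutant animal 12 overlapped wild-type animal 140. The fold change of Odf1 was -1.07 ± 0.53 on the log2 scale (edgeR adjusted p = 0.96).

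Odf2 and Ropn1l, the abundant members, differed by less in fold but did not overlap between genotypes. Odf2 had 946, 1074, 865 and 839.5 CPM in mutant input, against 1341, 1137 and 1333 CPM in wild-type input. Ropn1l had 179, 189, 141 and 128.1 CPM in mutant input, against 261, 216 and 248.7 CPM in wild-type input. Their log2 fold changes were -0.45 ± 0.11 and -0.60 ± 0.16, each with an edgeR adjusted p of 0.347 and an exact permutation p of 0.0571. Thus 3 of the 9 genes had every mutant below every wild type in input, where 11.3% of all features tested and 11.0% of protein-coding genes did.

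The other 4 genes overlapped. Fsip1, which encodes a partner of AKAP4, had 6.21, 26.4, 23.3 and 15.9 CPM in mutant input, against 32.8, 25.8 and 28.6 CPM in wild-type input. Fsip2, a very long coding sequence for another AKAP4 partner, had 24.8, 47.6, 10.7 and 23.8 CPM in mutant input, against 48.0, 25.5 and 97.9 CPM in wild-type input. Mutant animal 69 lay within the wild-type range of both genes, and wild-type animal 17 had the highest Fsip2 of all inputs. In wild-type animals 121 and 17, 771.8 of 1234.5 and 2019.6 of 2324.2 Fsip2 counts were assigned to the full-length Fsip2-203, which no mutant input had. Fsip2-201 had 631, 1198, 190 and 538 counts in mutant input, against 344, 552 and 263 in wild-type input. Without wild-type animal 17 the log2 fold change of Fsip2 was -0.45 ± 0.55, and on log2(TPM + 1) it was -0.37 ± 0.41.

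Ropn1, which encodes ropporin, had 13.0, 9.44, 6.87 and 4.57 CPM in mutant input, against 14.6, 8.75 and 18.6 CPM in wild-type input. Cabyr (chr18:12740322-12755260, plus strand), for a calcium-binding sheath protein that is phosphorylated during capacitation, had 6.34, 13.2, 5.82 and 5.24 CPM in mutant input, against 19.6, 12.0 and 11.9 CPM in wild-type input. Of the 4 mutants, 2 lay within the wild-type range of Ropn1 and 1 within that of Cabyr, and the others lay below it. The fold changes of these 4 genes were between -0.69 and -1.09 on the log2 scale, with standard errors of 0.45 to 0.57 and edgeR adjusted p values of 1.

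**Figure D1:**
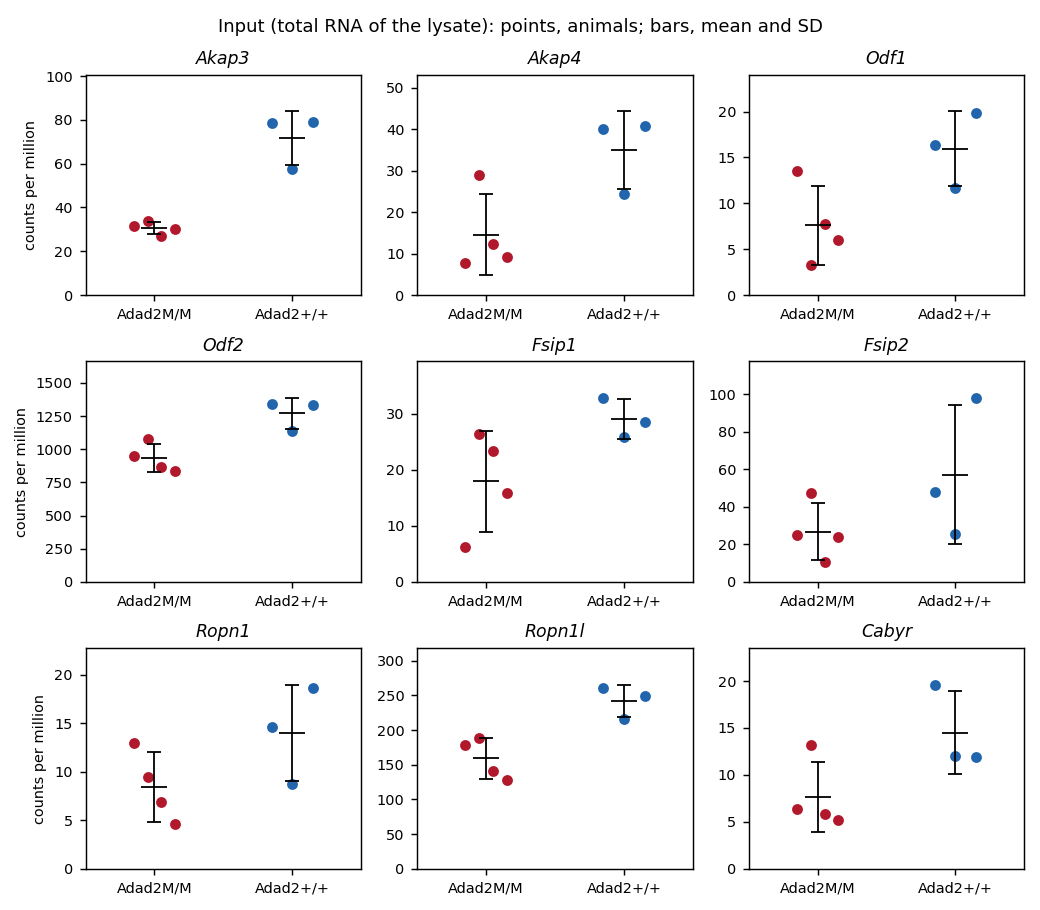
Level of each gene in input, in CPM on linear axes from 0, with Adad2M/M animals (red) left of Adad2+/+ animals (blue). Points are animals and bars are the mean and SD (n = 4 and 3), and the groups are apart in Akap3, Odf2 and Ropn1l.

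Markers of germ cell stages were read beside these values. Of 12 round spermatid markers, 10 passed the filter on low counts in input and all 10 had a log2 fold change below 0, with a median of -1.93, and none was called. The summed level of all 12 was 26.7 to 70.4 CPM in mutants and 83.4 to 114 CPM in wild types, and no marker was at 0 in all mutant inputs. All 8 late pachytene markers were below 0 as well (median -0.49, 6 of them at an unadjusted p under 0.05), with summed levels of 2906 to 3750 CPM in mutants and 4229 to 4844 CPM in wild types. The 5 early meiotic markers had a median of 0.03 and overlapping sums, at 869 to 1232 CPM in mutants and 1052 to 1175 CPM in wild types. Of the 9 Sertoli cell markers, 8 were tested, with a median of 0.24 and summed levels of 605 to 796 CPM in mutants and 563 to 653 CPM in wild types. The 5 Leydig cell markers had a median of 0.27, with 222 to 412 CPM in mutants and 194 to 297 CPM in wild types. All 4 vessel and blood markers were above 0 (median 0.68), with 127.7 to 349 CPM in mutants and 73.7 to 179.7 CPM in wild types. All 4 macrophage markers were above 0 too (median 0.21), with 33.4 to 68.5 CPM in mutants and 36.4 to 52.9 CPM in wild types. The part of cell makeup in the lower input levels was not tested.

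In IP, the question was whether ribosome-bound RNA of these genes differed between the genotypes. All 9 genes again had a lower mean in mutants, and none passed the edgeR test among the 7 that could be fitted, where 2 of 26186 features were called (0.00764%). At an unadjusted p under 0.05, Odf2 alone was lower, against 10.3% of all features, and the 7 genes had a median log2 fold change of -0.94, against -0.15 over all features. The other 2, Akap4 and Odf1, had too few counts to pass the filter on low counts.

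Akap4 was at 0 counts in all 4 mutant IP libraries, against 3.28, 0 and 3.81 CPM (79.8, 0 and 110 counts) in wild-type IP. Odf1 was likewise at 0 counts in all 4 mutant IP libraries, against 0.967, 0.991 and 0.082 CPM (23.6, 22.8 and 2.4 counts) in wild-type IP. Both were present in the input of the same mutants, with 1537 counts of Akap4 and 784 counts of Odf1 over the 4 libraries. Set against a floor of 3 counts over the group, Akap4 was at least 85.1-fold lower in mutant IP than in wild-type IP and at least 578-fold lower than in mutant input. Odf1 was at least 24.4-fold lower than in wild-type IP and at least 303-fold lower than in mutant input. These floors cover counting error only, and wild-type animal 140 was at 0 counts of Akap4 too. Of the features that passed the filter in IP, 6.08% were at 0 counts in all 4 mutants. Akap4 and Odf1 did not pass it, so that share does not cover genes as low as these.

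Odf2 had 693, 669, 601 and 510.5 CPM in mutant IP, against 979, 772 and 869.8 CPM in wild-type IP. No mutant overlapped a wild type (exact permutation p = 0.0286, the smallest possible), and the log2 fold change was -0.50 ± 0.13, with an adjusted p of 0.114 in edgeR and 0.0446 in DESeq2, which called 7.94% of features lower. Across its alternatives the adjusted p of Odf2 ran up to 0.348. Odf1 was the other gene without overlap, at 0 in mutants against a lowest wild-type value of 0.082 CPM, but it did not pass the filter. Of the features that did, 14.5% had every mutant below every wild type in IP.

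The low-abundance genes were uneven among mutant IP libraries. Akap3 had 0.038, 13.2, 5.27 and 9.39 CPM in mutant IP, against 22.0, 13.1 and 16.5 CPM in wild-type IP, and mutant animal 12 had 1 count. Fsip1 had 0, 43.6, 8.93 and 16.4 CPM in mutant IP, against 39.3, 32.2 and 36.2 CPM in wild-type IP, so that animal 69 was above all wild types while animal 12 was at 0. Ropn1 had 1.63, 0, 1.13 and 10.39 CPM in mutant IP, against 10.39, 11.8 and 12.9 CPM in wild-type IP. The coefficient of variation over animals was 0.81 for Akap3, 1.09 for Fsip1 and 1.46 for Ropn1 in mutant IP, against 0.26, 0.10 and 0.11 in wild-type IP. The fitted log2 fold changes were -1.30 ± 1.25 for Akap3, -1.06 ± 1.51 for Fsip1 and -1.83 ± 1.64 for Ropn1 (edgeR adjusted p = 1 each). The difference in spread was not tested, and mutant IP libraries were also those with the fewest genes above 0.

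Fsip2 had 50.6, 16.02, 21.7 and 30.9 CPM in mutant IP, against 46.8, 53.6 and 39.2 CPM in wild-type IP. Ropn1l had 250.2, 145, 296 and 300.4 CPM in mutant IP, against 299, 442 and 376 CPM in wild-type IP. Cabyr had 2.36, 1.51, 4.40 and 10.1 CPM in mutant IP, against 10.5, 5.92 and 10.2 CPM in wild-type IP. At least 1 mutant of each lay within the wild-type range, and the log2 fold changes were -0.64 ± 0.39 for Fsip2, -0.59 ± 0.26 for Ropn1l and -0.94 ± 0.92 for Cabyr.

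**Figure D2:**
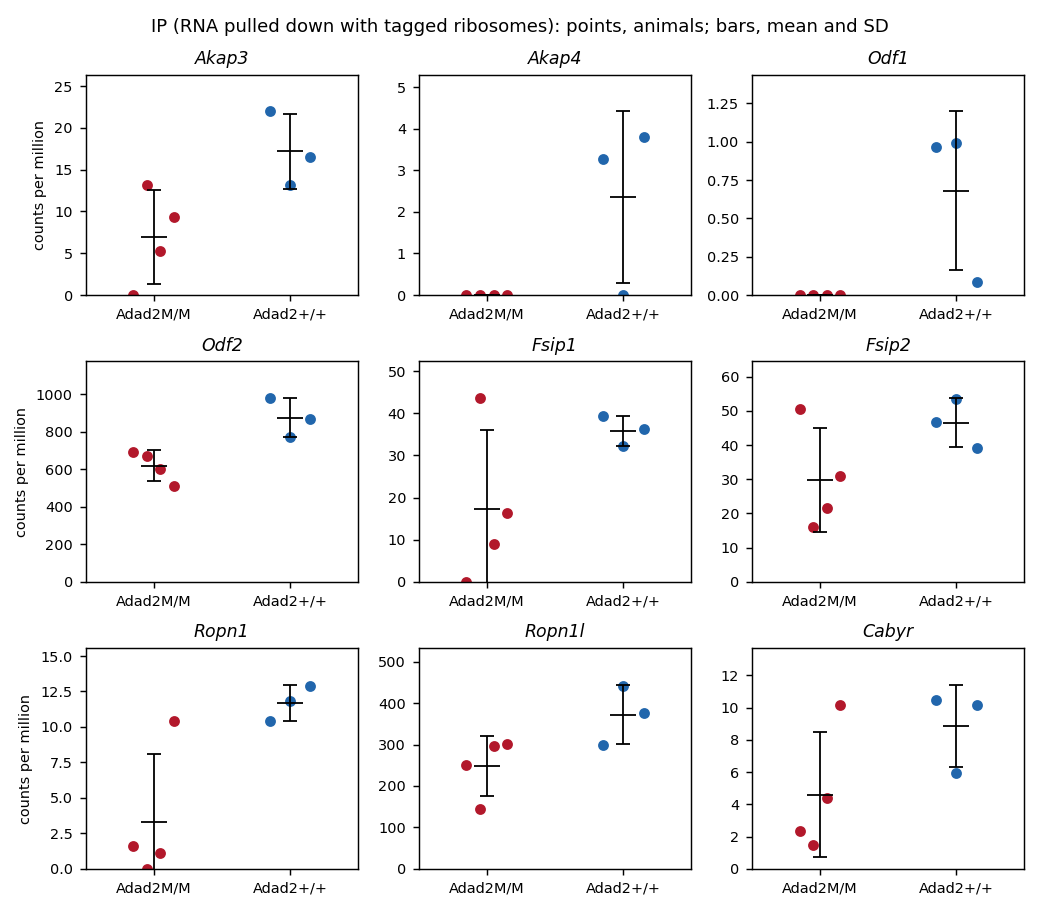
Level of each gene in IP, in CPM on linear axes from 0 (bars reaching below 0 are clipped there), with Adad2M/M animals (red) left of Adad2+/+ animals (blue); points are animals and bars are the mean and SD (n = 4 and 3). All mutants are at 0 for Akap4 and Odf1, and Akap3, Fsip1 and Ropn1 range from at or near 0 to within or near the wild-type values.

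**Figure D3:**
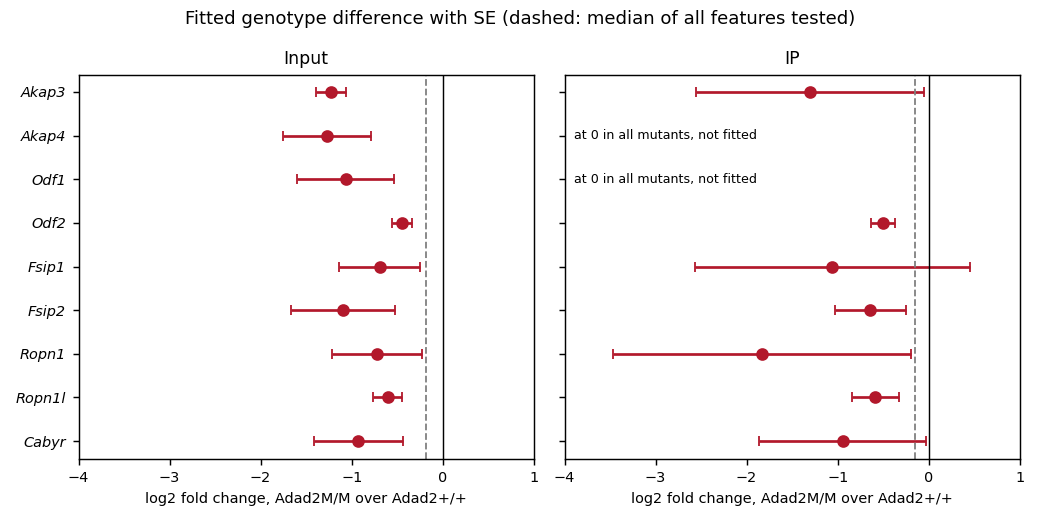
Fitted log2 fold change of Adad2M/M over Adad2+/+ (horizontal axis) for each gene in input (left) and IP (right), with the standard error as a bar. Every fitted value is below 0 and below the dashed line, the median of all features tested (-0.18 in input and -0.15 in IP), and none passed the adjusted threshold in edgeR.

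Ribosome association was then read as IP over input within each genotype, with the animal as a block. In wild types, where 19.4% of 34864 features were called (13.0% higher and 6.37% lower in IP), Akap3 was lower in IP and Fsip1 and Ropn1l were higher. In mutants, where 9.91% of 22918 features were called (6.35% higher and 3.56% lower), Odf2 was lower in IP and no other gene passed.

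Akap3 had ratios of 0.365, 0.273 and 0.267 in wild-type animals 121, 140 and 17 (log2 -1.74 ± 0.15, edgeR adjusted p = 0.00767). Fsip1 had ratios of 1.56, 1.49 and 1.62 in wild types (log2 0.64 ± 0.12, adjusted p = 0.0339), and Ropn1l had ratios of 1.49, 2.45 and 1.93 (log2 0.94 ± 0.16, adjusted p = 0.0301). In each, the 3 animals lay on one side of 1. The calls did not hold on 2 animals: Fsip1 and Ropn1l lost theirs without any one of the 3 animals (adjusted p from 0.0695 to 0.195), and Akap3 lost its call without animal 121 (0.0617) or animal 140 (0.0669). Fsip1 was also not called without a filter on low counts (0.0704). The table as a whole had 6761 calls with all 3 animals, 0 calls without animal 121 or 140, and 3754 calls without animal 17.

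In mutants the same genes had wider ratios. Akap3 had ratios of 0.0011, 0.366, 0.207 and 0.333 in mutant animals 12, 69, 93 and 94, all below 1, with a log2 value of -2.75 ± 1.43. Fsip1 had 0, 1.56, 0.405 and 1.11, and Ropn1l had 1.33, 0.724, 2.23 and 2.51, above 1 in 2 and 3 of the 4 animals. None of the 3 passed the edgeR test in mutants (adjusted p from 0.304 to 0.711), and DESeq2 called Akap3 alone of these 3, lower (0.0265), as it called 29.9% of features.

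Odf2 had ratios of 0.697, 0.587, 0.735 and 0.651 in mutants (log2 -0.59 ± 0.09, edgeR adjusted p = 0.0113), against 0.951, 0.811 and 0.832 in wild types (log2 -0.21 ± 0.08, adjusted p = 0.171). The direction depended on the scaling: on log2(TPM + 1), where the median protein-coding gene stood 1.02 higher in mutants and 0.43 higher in wild types than under TMM, Odf2 was at 0.32 in mutants and 0.22 in wild types and was not called. In wild types Odf2 was called lower by DESeq2 (0.00885) and by edgeR with a filter of at least 10 counts (0.00437) or annotated genes alone (0.00445). The call in mutants was lost without animal 69 (adjusted p = 0.0683), without animal 94 (0.0649) and without animals 12 and 69 together (0.0867). Scaling all 14 libraries together set the wild-type ratios 0.34 lower on the log2 scale and the mutant ratios 0.03 lower, and Odf2 then averaged 0.651 ± 0.051 in mutants and 0.681 ± 0.023 in wild types (SD, n = 4 and 3), with overlap.

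Akap4 and Odf1 were the members least represented in IP. Akap4 had a ratio of 0 in all 4 mutants, against 0.1065, 0 and 0.1195 in wild types, and Odf1 had 0 in all 4 mutants, against 0.077, 0.102 and 0.0053 in wild types. Their wild-type log2 values were -4.36 ± 1.52 and -4.57 ± 1.16, not called by edgeR (adjusted p = 0.142 and 0.0733) but called by DESeq2 (0.0222 and 3.62e-06), which called 31.2% of features lower in wild types. Without the replicate block edgeR called Odf1 lower in wild types (adjusted p = 0.0203). In mutants both genes passed the filter through input alone, and the comparison with an IP of 0 counts is given only as the floors above.

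With the scaling within each genotype, the remaining ratios lay on both sides of 1 in each genotype, with most of those of Ropn1 and Cabyr below it. With all 14 libraries scaled together, wild-type Cabyr had 0.518, 0.486 and 0.869, all below 1. Fsip2 had 1.94, 0.317, 2.14 and 1.39 in mutants, against 1.27, 2.52 and 0.511 in wild types. Ropn1 had 0.1196, 0, 0.173 and 2.43 in mutants, against 0.926, 1.62 and 0.883 in wild types. Cabyr had 0.353, 0.108, 0.799 and 2.07 in mutants, against 0.697, 0.5895 and 1.09 in wild types. None was called in either genotype by the edgeR fits.

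**Figure D4:**
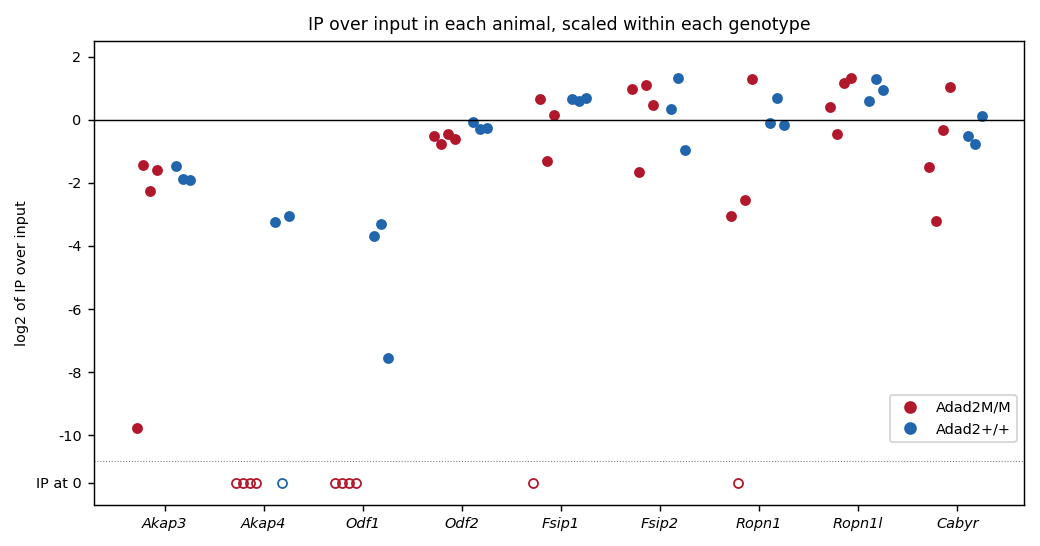
Log2 of IP over input for each gene and animal (vertical axis), scaled within each genotype, with Adad2M/M animals (red) left of Adad2+/+ animals (blue); open circles on the lowest line are animals whose IP was at 0. The IP of Akap4 and Odf1 is at 0 in every mutant and their wild-type points lie below 0 or at an IP of 0, while the wild-type points of Fsip1 and Ropn1l lie above 0.

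Whether ribosome association differed between genotypes was tested as the interaction of fraction and genotype over all 14 libraries. No gene of the 9 was called, and neither was any of 16015 features in edgeR (0.0%), although 0.475% were above 0 and 6.74% below 0 with an unadjusted p under 0.05. Of the 9, Odf1 alone had an unadjusted p under 0.05 (0.0437, adjusted p = 0.671), in a fit whose size rests on mutant libraries at 0. DESeq2 called 0.212% of features higher and 5.9% lower, and none of the 9 genes. The difference was below 0 in 8 of 9 genes, Fsip2 being the exception, as it was in 11180 of the 16015 features (median -0.29), and it was near 0 for Odf2 (-0.07 ± 0.09) and Ropn1l (-0.02 ± 0.43). These last 2 values were smaller than the shifts between scalings, under which they changed sign: the median protein-coding gene moved by 0.083 with at least 10 counts and by 0.282 on log2(TPM + 1), where both turned, and by 0.047 under DESeq2 and with RLE factors, where Ropn1l turned. On log2(TPM + 1), Akap4 and Odf1 also stood above 0 and Fsip2 below 0. With mutant IP at 0, the mutant side of Akap4 and Odf1 is there set by input and the added 1. Their sign carries no weight. Exact permutation tests on the log2 ratios, with 1 CPM added to both IP and input, gave p values from 0.286 (Ropn1) to 0.971 (Ropn1l). For Akap4 and Odf1 (0.629 and 0.657 in that test), whose mutant IP is at 0, the added 1 sets much of the value, and these p values carry no weight. On the ratios without the added 1, Odf1 was the only gene with every mutant ratio below every wild-type ratio, as were 8.65% of features. Without animals 12 and 69 the count below 0 was 5 of 9, and Akap3, Ropn1l and Cabyr stood above 0.

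The transcripts of each gene were compared as shares of its TPM, which are RSEM's division of reads among isoforms. The shares of Fsip2 and Akap3 differed between the fractions. The full-length Fsip2-203, which codes for 6995 residues in 21116 bases, was above 0 in wild-type input alone, at 10.9% and 40.4% of the TPM in animals 121 and 17, and at 0 in the other 12 libraries. The short Fsip2-202 (740 bases, annotated as a target of nonsense-mediated decay) took 83.0%, 52.8%, 82.2% and 79.5% of the TPM in mutant IP, against 0%, 36.9%, 63.3% and 68.3% in mutant input. In wild types it took 86.2%, 81.5% and 77.7% in IP, against 61.9%, 56.5% and 30.3% in input. Its share was higher in IP in 7 of 7 animals, by 32.2 ± 25.2 percentage points (SD), with an exact sign-flip p of 0.0156, the smallest that 7 animals allow. Of 15 shares compared between fractions, 3 had an exact p under 0.05 before adjustment. By counts the difference was 25.6 points, again in 7 of 7. Fsip2-201 was lower in IP in 7 of 7 by TPM (exact p = 0.0156) but in 5 of 7 by counts (p = 0.734). Wild-type Fsip2 as a whole was higher in IP on log2(TPM + 1), by 2.35 ± 0.17 (limma adjusted p = 0.000154), while the difference in counts was 0.24 ± 0.50 and was not called.

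Akap3 was assigned to Akap3-201 alone in all 7 inputs. In IP its share was 0%, 5.83%, 0% and 0% in mutants and 58.7%, 0% and 100% in wild types, and it was lower in IP in 6 of 7 animals (exact p = 0.0312). The other reads in IP were assigned to Akap3-202 and Akap3-203, which have other annotated starts and code for 864 residues, as Akap3-201 does. In the mutants, Akap3-202 took 100% of the TPM in IP of animals 12, 93 and 94, of which animal 12 had 1 count.

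Odf2 was carried mainly by Odf2-201 (638 residues) and Odf2-211 (701 residues). In input Odf2-201 held 28.3% to 39.0% of the TPM in mutants and 40.0% to 42.2% in wild types, without overlap (exact permutation p = 0.0571). That was the smallest p among 28 shares compared between genotypes, shared with Cabyr-206, which held 0% to 11.5% in mutant input and 16.1% to 33.8% in wild-type input. Odf2-203 was above 0 only in mutant IP, in animals 12, 69 and 93, at 27.8%, 7.86% and 9.25%. Transcripts that code for 800 residues or more (5 of 25, a grouping made after the shares were seen) held 2.98% to 10.2% in mutant IP, 4.75% to 6.28% in wild-type IP, 3.26% to 7.16% in mutant input and 3.57% to 3.72% in wild-type input. Odf1 and Ropn1l have 1 transcript each. In the low genes single transcripts took all reads of a mutant library: Cabyr in mutant IP was assigned wholly to Cabyr-202 in animal 12, to Cabyr-203 in animal 69 and to Cabyr-204 in animal 93.

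**Figure D5:**
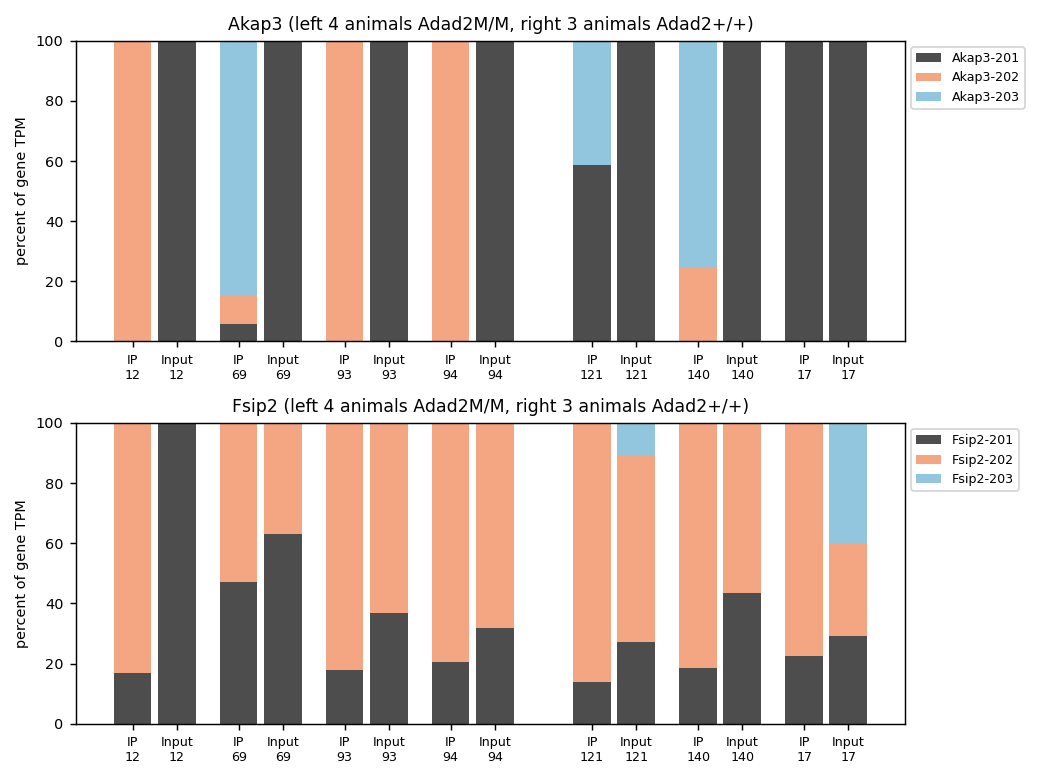
Share of the TPM of Akap3 (top) and Fsip2 (bottom) taken by each transcript, in percent, with IP left of input in each animal; the left 4 animals are Adad2M/M and the right 3 are Adad2+/+. Akap3-201 fills every input bar and Fsip2-202 takes more of each IP bar than of the input bar beside it.

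Other genes of these structures were read from lists. Of 10 other fibrous sheath genes, 7 were below 0 in input (median -0.40), none was called and 4 were lower at an unadjusted p under 0.05 (Gstm5, Fscb, Tsga10 and Gapdhs). Gstm5, a glutathione S-transferase, averaged 358 ± 53.6 CPM in mutant input and 529 ± 74.8 CPM in wild-type input (log2 fold change -0.56 ± 0.14, edgeR adjusted p = 0.347), and Tsga10 averaged 194 ± 32.9 CPM in mutant input and 272 ± 23.6 CPM in wild-type input (-0.49 ± 0.14, 0.359). Fscb, a CABYR-binding sheath protein, averaged 2.28 ± 1.41 CPM in mutant input and 14.5 ± 4.90 CPM in wild-type input (log2 fold change -2.67 ± 0.69, edgeR adjusted p = 0.347, DESeq2 0.00354). Gapdhs, the sperm glyceraldehyde-3-phosphate dehydrogenase bound to the sheath, averaged 3.75 ± 1.94 CPM in mutant input and 15.6 ± 5.39 CPM in wild-type input (log2 -2.06 ± 0.65, edgeR adjusted p = 0.416, DESeq2 0.0436). Both were at 0 in all 4 mutant IP libraries, as Akap4 and Odf1 were, against 1.62 ± 0.95 CPM of Fscb and 2.41 ± 0.50 CPM of Gapdhs in wild-type IP. Fscb and Gapdhs passed the filter in IP through their wild-type counts alone. Of the features that passed it, 6.08% were at 0 counts in all 4 mutants. Of 11 other outer dense fiber genes tested of 12, 9 were below 0 in input (median -0.36), and Odf4 had the smallest unadjusted p (22.9 ± 2.60 CPM in mutants and 40.0 ± 7.79 CPM in wild types, log2 -0.81 ± 0.20, edgeR adjusted p = 0.347).

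In wild-type IP over input, 3 of the 10 other sheath genes were higher and 5 lower, and 4 other fiber genes were higher and 1 lower. Slc25a31, the ADP/ATP carrier of the flagellum, was higher at log2 2.49 ± 0.12 (edgeR adjusted p = 0.00634), and so was Rhpn1 (1.27 ± 0.16, 0.0142), while Tsga10 (-0.65 ± 0.08, 0.0139) and Gapdhs (-2.31 ± 0.34, 0.0203) were lower, as Akap3 was. Of the fiber genes, Ccdc42 (1.61 ± 0.08, 0.00634), Spag5 (1.27 ± 0.08, 0.00634) and Klc3 (3.29 ± 0.47, 0.0191) were higher and Oaz3 (-3.13 ± 0.49, 0.0237) was lower. Of 9 protein kinase A genes and anchors, 3 were higher and none lower in wild-type IP, among them Prkaca, the catalytic subunit (1.37 ± 0.13, 0.00867), and Prkar1a, a regulatory subunit (1.152 ± 0.079, 0.00642). Both were also higher in mutant IP (0.83 ± 0.16 and 0.73 ± 0.16, adjusted p = 0.0254 and 0.0434). In input the kinase list had a median of -0.04 between genotypes, with 5 of 9 below 0. These 3 lists shared the animals of the members and are given as counts beside the 13.0% and 6.37% of all features.

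The IP fraction was also read against markers. All 5 early meiotic markers were higher in IP in both genotypes (median log2 1.52 in mutants and 1.85 in wild types), while the 8 Sertoli markers tested were below 0 in both (median -5.19 in mutants and -2.28 in wild types). Of 12 round spermatid markers, 6 passed the filter in the genotype comparison of IP, and Tnp1, Tnp2, Prm1, Prm2 and Tssk2 were at 0 in all 4 mutant IP libraries. These 5 were near 0 in wild-type IP as well, with means of 0.16, 0.26, 0.28, 0.33 and 0.37 CPM. They did not pass the filter, so the 6.08% of tested features at 0 in all 4 mutants does not cover them. The summed level of the 12 was 20.8 to 45.5 CPM in mutant IP and 68.1 to 98.9 CPM in wild-type IP. All 8 late pachytene markers were below 0 between genotypes in IP too (median -0.77, 7 of them at an unadjusted p under 0.05), with sums of 5692 to 6382 CPM in mutant IP and 7709 to 8842 CPM in wild-type IP. Their part in the lower IP levels of the 9 genes was not tested.

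Genes with the most similar pattern were taken as the highest Pearson r of log2(CPM + 1) over the 14 libraries among 13041 protein-coding genes, which is a description over libraries that share genotype, fraction and detection. Akap3 was closest to Ccdc7a (r = 0.981), Akap4 to Spz1 (0.974), Nt5c1b (0.972) and Smcp (0.971), and Odf1 to Gm20821 and 0610030E20Rik (0.972 each). Smcp encodes a cysteine-rich protein of the sperm mitochondrial capsule. Odf2 was closest to Pabpc2 (0.974), Fsip1 to Acad10 (0.945), Ropn1 to Ccdc70 (0.921) and Ropn1l to Ube2j2 (0.913). Cabyr was closest to Gm19935 (0.903), which was also among the closest of Ropn1 (0.91). Fsip2 had the weakest likeness, with r = 0.794 to Dnajb13.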

How the data were processed

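RNA of 21 dpp testes was prepared as stranded, ribosomal RNA-depleted libraries and sequenced as paired ends. The authors removed ribosomal reads with Bowtie2, trimmed with Trimmomatic and quantified with RSEM 1.3.3 on GRCm38 with Ensembl and assembled testis transcripts, and reads of a gene may have gone to an overlapping assembled transcript. The authors deposited RSEM expected counts per transcript, not normalized, and TPM values scaled within each library. Counts of each gene's Ensembl transcripts were summed (GENCODE M21) and rounded. They were tested in edgeR 4.0.16 (TMM factors, filterByExpr, robust quasi-likelihood test) over 36572 features in input, 26186 in IP, 34864 and 22918 in IP over input of wild types and mutants, and 16015 in the interaction, where features at 0 in an input were left out. Calls had a Benjamini-Hochberg adjusted p under 0.05. CPM are TMM-scaled within a fraction. For 27 single values, exact two-sided permutation tests over the 7 animals were run on log2(CPM + 1) or on the log2 ratio. In that ratio 1 CPM was added to both IP and input.

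Input and IP of an animal came from the same testes, so the animal was a block in IP over input; residuals of the 2 libraries correlated by 0.092 to 0.173 in wild types and by 0.030 to 0.063 in mutants. Nothing says whether litters were shared. The alternatives were DESeq2 1.42.0, RLE factors, an unfiltered table, a minimum of 10 counts per library, limma 3.58.1 on log2(TPM + 1) or log2(TPM + 0.1), annotated genes alone, no block, and leaving out animals. The members and lists were chosen with earlier results of these data known. All 9 members are named, up to 4 genes of each other list by smallest p, and the 3 genes most like a member. The study's EBSeq test was not used here. For ribosome association the study divided IP TPM by input TPM and used a Welch t-test. The ratios and edgeR calls here are of TMM-scaled counts. The tests were tested on simulated data.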

Additional observations from a re-analysis of the deposited data

Results flagged for a closer look

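Of 16 groups of 4 mutant values tested for a value far from the others, 2 stood out, where chance flags about 1 in 20 such groups. Ropn1 in mutant IP had 10.39 CPM in animal 94, while the other 3 mutants had 0 to 1.63 CPM. Animal 94 thus lay at the lowest wild-type value (10.39 CPM in animal 121). Cabyr in mutant input had 13.2 CPM in animal 69, while the other 3 mutants had 5.24 to 6.34 CPM and the wild types 11.9 to 19.6 CPM. Animal 69 also had the fewest genes above 0 among the inputs (15438), and all of its Cabyr reads were assigned to Cabyr-203.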

How the results depend on the processing

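The lower means in mutants kept their direction for all 9 genes in input and for every gene fitted in IP under the 15 alternatives of each comparison. The wild-type mean of Fsip2 in input includes counts of Fsip2-203, which only wild-type animals 121 and 17 had. Without animals 12 and 69 the median in input was -1.28 and no gene was called. Under DESeq2, 1 gene was called in input and 1 in IP, against 0 each in edgeR. For IP over input in wild types the 3 calls became 6 under DESeq2, 6 on log2(TPM + 1), 6 on log2(TPM + 0.1) and 5 with annotated genes alone, 2 without a filter on low counts (Fsip1 lost), and 0 to 1 when an animal was left out. In mutants the 1 call became 4 under DESeq2, 3 on both TPM scales, 2 with annotated genes alone, 0 without animals 12 and 69, and 0 to 1 when an animal was left out. Without the replicate block there were 4 calls in wild types, 3 in mutants and 0 in the interaction. Of the added calls in mutants, those under DESeq2, on both TPM scales and without the block include Akap4 and Odf1. With annotated genes alone the added call was Akap4. The mutant IP of both genes is at 0 counts, so these calls of Akap4 and Odf1 carry no weight. On both TPM scales the other call was Ropn1l, higher in IP.

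In wild types Ropn1 turned to -0.045 with at least 10 counts and -0.044 with annotated genes, Odf2 to 0.22 and Cabyr to 0.043 and 0.046 on the 2 TPM scales. Leaving out an animal gave -0.32 to 0.78 for Fsip2 and -0.16 to 0.25 for Ropn1 in wild types, and -0.044 to 0.83 for Fsip2 in mutants. In mutants Odf2 was 0.32 on both TPM scales (called with TMM), and Cabyr was 0.30 without animals 12 and 69. In the interaction Ropn1l was 0.030 under DESeq2 and RLE factors and 0.066 with at least 10 counts, where Odf2 was 0.016. On log2(TPM + 1) Akap4 and Odf1 stood at 0.42 each in the interaction, a sign without weight because their mutant IP is at 0. On that scale the interaction gave 0.095 for Odf2, -0.59 for Fsip2 and 0.21 for Ropn1l. On log2(TPM + 0.1) it gave 0.095 for Odf2, -0.56 for Fsip2 and 0.22 for Ropn1l. Without animals 12 and 69 it gave 0.031 for Akap3, 0.52 for Ropn1l and 0.97 for Cabyr, and leaving out single animals gave -1.39 to 0.27 for Akap3, -0.38 to 0.86 for Fsip2, -0.34 to 0.28 for Ropn1l and -0.98 to 0.38 for Cabyr. By counts in place of TPM, the Odf2-211 share was 0.36 points higher in IP, the Fsip2-202 share 4.21 points higher in mutant input, and the Odf2-201 share -1.41 points in mutant IP. The causes were not tested. In all, 520 of 594 single-gene values kept their direction and side of the threshold.

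Counts over all features moved more: DESeq2 called 1143 in input against 3 in edgeR, 2504 in IP against 2, 18846 in wild-type IP over input against 6761, 10039 in mutants against 2271 and 979 in the interaction against 0. Without a filter 30 features were called in input and 76 in IP, and the TPM scales called 0 in input, 995 and 1946 in IP, 11349 and 10633 in wild types and 6335 and 6100 in mutants. At least 10 counts gave 11325 calls in wild types and 3937 in mutants, and no block gave 10270, 3721 and, in the interaction, 388. Leaving out an animal gave 0 to 2 calls in input, 0 to 4 in IP, 961 to 1585 in mutants and 0 to 10 in the interaction. Without animals 12 and 69 there were 0 calls in input, 12 in mutants and 76 in the interaction, and the wild-type fit does not hold these animals. Standard errors of the log2 fold change between genotypes reached 0.57 in input and 1.64 in IP among the 9 genes, and genes at 0 are known only to the floor of 3 counts.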
